A study of Rattus norvegicus with 13 samples.

Results

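Second-passage rat articular chondrocytes expressed several receptors for vasoactive peptides and amines, and the genes described here are Agtr1a, Agtr2, Adra1b, Bdkrb1, Bdkrb2, Ednra and Ednrb with the endothelin ligand gene Edn1. They were selected on measured values of these same arrays, as receptors lowered or raised by glucosamine or IL-1β. Their signals, fold changes and calls are therefore given as a description only, and no p-value is given for them. The members are the probe sets of the array annotated to exactly 1 gene whose symbol is on that list. Of the 8 genes, 6 had such a probe set, namely 5 receptors and Edn1, against 14217 genes in the whole series. They were covered by 10 of 31042 probe sets. Ednra and Ednrb had none, and their expression was not analysed here.

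The cells came from femoral head cartilage of 2-month-old male Wistar rats, were pooled into 1 culture before seeding, and were measured with 1 Affymetrix whole-genome rat GeneChip array per flask. The groups were glucosamine plus IL-1β (20 mM glucosamine for 20 hours, with 10 ng/ml IL-1β for the last 14, n = 4), glucosamine alone (20 mM for 20 hours, n = 2), IL-1β alone (10 ng/ml for 14 hours, n = 4) and untreated cultures (n = 3). All flasks shared the same pool of cells and the same serum-containing medium, so the spread between arrays is a spread between flasks and not between animals. In such monolayers a smaller share of cells of 1 type and less RNA per cell cannot be told apart. Of the chondrocyte markers, 8 of 10 were measured, each on its probe set with the highest mean log2 signal. On those probe sets none was at the background floor on all arrays of a group. Other probe sets of the markers were not examined.

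These receptors span the membrane and act through G proteins. The angiotensin receptor encoded by Agtr1a, the adrenergic receptor encoded by Adra1b and the B1 and B2 bradykinin receptors encoded by Bdkrb1 and Bdkrb2 couple mainly to Gq, which activates phospholipase C and releases calcium from intracellular stores. Agtr2 encodes the other angiotensin receptor, which often opposes the effects of Agtr1a, and Edn1 encodes the precursor of endothelin-1, a vasoconstrictor that endothelial cells make in quantity and that chondrocytes also produce. Bradykinin B2 receptors are commonly present at rest, whereas B1 receptors are known as inducible by inflammatory cytokines, IL-1 among them.

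The start regions of the 3 lowered genes that hold a match to the TATA box letters TATAAN are shown, because the responses of Agtr1a, Agtr2 and Edn1 to the same 2 agents differed. Whether a match serves as a TATA box was not tested. Each run is the RefSeq window (build GRCr8) that covers the 250 bases before and the first 50 bases of the transcript, on the strand of the gene, with the match to TATAAN in capitals. Agtr1a lies on the minus strand at chr17:34435383-34435682, Agtr2 on the plus strand at chrX:116914070-116914369, and Edn1 on the minus strand at chr17:22666638-22666937.
Agtr1a: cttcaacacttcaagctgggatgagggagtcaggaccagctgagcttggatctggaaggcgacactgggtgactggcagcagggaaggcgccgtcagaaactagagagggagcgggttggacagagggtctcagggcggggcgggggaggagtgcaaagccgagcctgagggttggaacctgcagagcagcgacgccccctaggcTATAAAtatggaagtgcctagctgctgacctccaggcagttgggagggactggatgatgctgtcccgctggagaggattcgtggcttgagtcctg
Agtr2: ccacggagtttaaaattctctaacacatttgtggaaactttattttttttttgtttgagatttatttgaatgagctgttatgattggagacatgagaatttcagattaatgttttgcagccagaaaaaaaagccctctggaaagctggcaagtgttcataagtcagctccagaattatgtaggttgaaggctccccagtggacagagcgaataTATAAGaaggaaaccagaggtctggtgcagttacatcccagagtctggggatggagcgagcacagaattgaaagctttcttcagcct
Edn1: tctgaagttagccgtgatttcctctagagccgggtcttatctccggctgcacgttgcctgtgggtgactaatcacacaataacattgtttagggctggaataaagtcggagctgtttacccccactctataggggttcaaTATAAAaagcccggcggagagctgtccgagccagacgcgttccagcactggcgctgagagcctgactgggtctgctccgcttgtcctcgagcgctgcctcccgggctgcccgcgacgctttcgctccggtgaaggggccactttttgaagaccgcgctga

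A window was given for 7 of the 8 genes, with Bdkrb2 as the exception. The TATAAN match began 45 bases before the start of Agtr1a, 37 before that of Agtr2 and 110 before that of Edn1, in each case on the strand of the gene. TATAAN on either strand was present in 3 of the 7 windows and in 26.2% of all 33469 windows of 300 bases. The NF-kB consensus, the AP-1 motif TGANTCA and the cAMP response element TGACGTCA, each searched on both strands, matched in 0 of the 7 windows, and in 7.51%, 7.33% and 1.83% of all windows. No match of 1 motif overlapped a match of another in these windows. The missing match says only that those letters are not in this stretch. The G and C content was 60.7% for Agtr1a, 40.3% for Agtr2, 72.0% for Adra1b, 57.3% for Edn1 and 50.7% for Bdkrb1, with a median of 51.7% over all windows. In the same assembly Bdkrb1 and Bdkrb2 are neighbouring coding genes on chromosome 6, and Agtr1a and Edn1 both lie on chromosome 17.

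The values are linear probe set signals in arbitrary units. Fold changes are differences of mean log2 signal, ± SE, after signals below 5.71 (the 25th percentile of all values, called the floor) had been set to that value. A fold change in which any array of 1 group was at or under the floor is a lower bound and is written as at least so many fold. Each gene is represented by its probe set with the highest mean log2 signal, and a probe set was called where limma gave a Benjamini-Hochberg adjusted p under 0.05 over the 29263 probe sets tested.

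All 6 genes passed the filter of being above the floor on at least 1 array. With glucosamine plus IL-1β against untreated cultures, 0 of the 6 were called higher and 4 lower, beside 11.5% and 12.4% of all tested probe sets. With glucosamine against untreated cultures 0 were called higher and 4 lower, beside 7.14% and 7.56%. With IL-1β against untreated cultures 1 was called higher and 3 lower, beside 11.1% and 13%. With glucosamine plus IL-1β against IL-1β, 0 were called higher and 3 lower, beside 11.9% and 11.4%, and against glucosamine 0 higher and 1 lower, beside 0.933% and 0.861%. Since these contrasts chose the genes, nothing is read from the counts or from the medians that follow. The first 3 contrasts share the untreated arrays. The median log2 fold change of the 6 genes was -2.39 for both agents, -1.58 for glucosamine and -0.60 for IL-1β over untreated cultures, beside medians of 0.13, 0 and 0.10 over all tested probe sets.

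**Figure D1:**
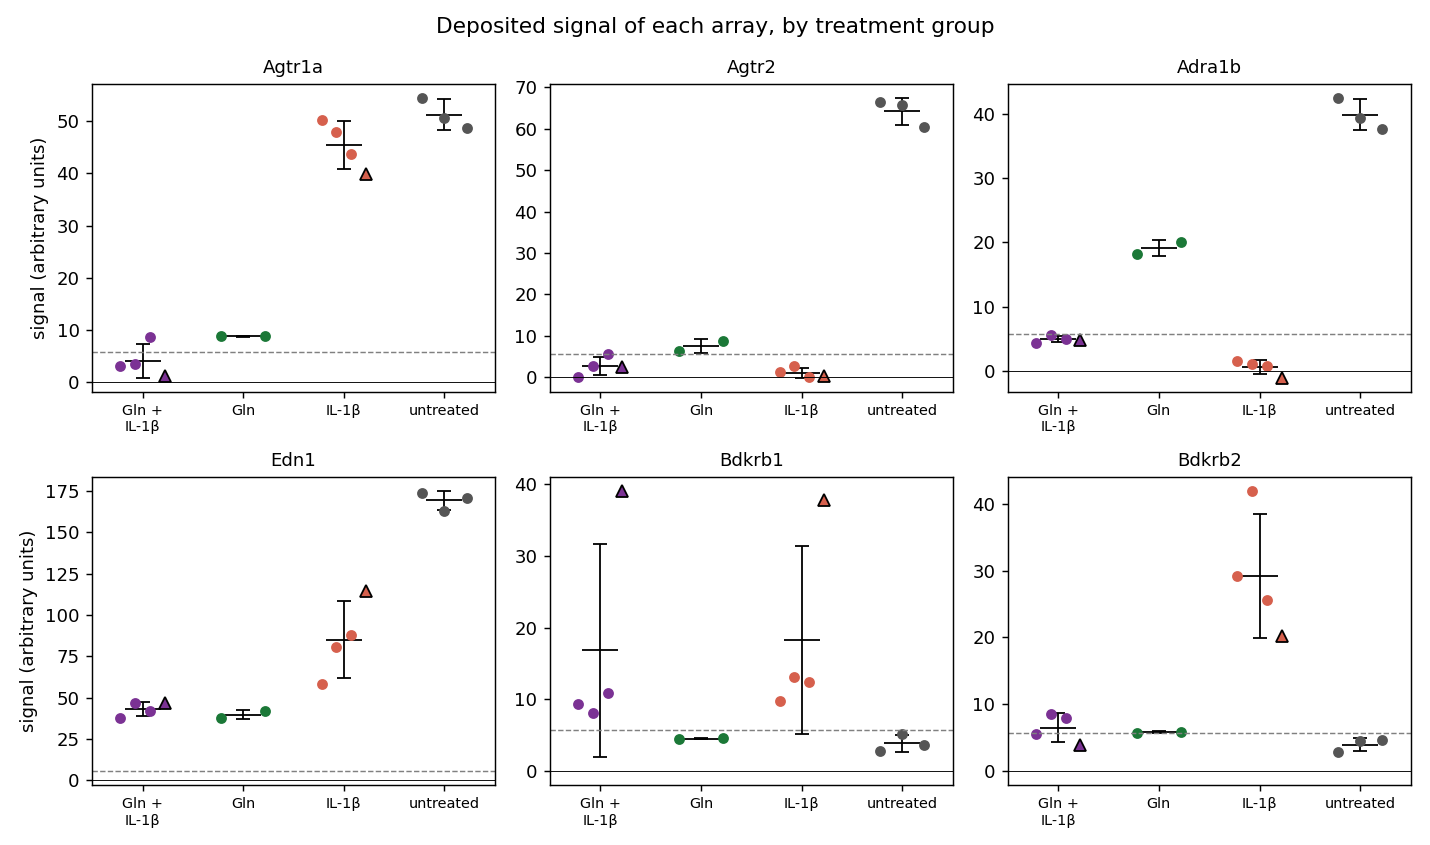
Signal of the probe set that stands for each of the 6 genes (y axis, arbitrary units, linear) on each of the 13 arrays, by treatment group (x axis; Gln, glucosamine). Points are arrays, triangles are replicate d, horizontal bars with whiskers are group mean ± SD, and the dashed line is the floor of 5.71. Agtr1a stays high with IL-1β alone, Agtr2 is low in all 3 treated groups, and Bdkrb2 is high only in the 4 IL-1β arrays.

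The angiotensin receptors shared the glucosamine response and parted on IL-1β. Agtr1a had signals of 3.18, 3.43, 8.60 and 1.14 with glucosamine plus IL-1β, 8.86 and 8.77 with glucosamine, 50.3, 47.9, 43.7 and 39.8 with IL-1β, and 54.5, 50.5 and 48.6 in untreated cultures. The IL-1β arrays overlapped the untreated ones, and all arrays with glucosamine in the medium lay far below both. Agtr1a was thus 5.80-fold lower with glucosamine than in untreated cultures (log2 fold change -2.54 ± 0.27) and at least 8.08-fold lower with both agents (-3.01 ± 0.22). Against IL-1β alone, both agents left it at least 7.15-fold lower (-2.84 ± 0.21), whereas IL-1β against untreated cultures gave -0.18 ± 0.22.

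Agtr2 was low in every treated flask. Its signals were 0.0352, 2.85, 5.56 and 2.56 with glucosamine plus IL-1β, 6.36 and 8.76 with glucosamine, 1.23, 2.69, 0.186 and 0.359 with IL-1β, and 66.4, 65.7 and 60.3 in untreated cultures. No treated array overlapped the untreated ones, and all 8 arrays with IL-1β were at or under the floor. Agtr2 was at least 11.2-fold lower with both agents and with IL-1β alone (-3.49 ± 0.17 each), and 8.59-fold lower with glucosamine (-3.10 ± 0.20). Because the groups with IL-1β have only a bound, no fold is given between them.

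Both angiotensin receptors had another probe set of their own. That of Agtr1a, 1369291_at, averaged -14.5 ± 17.4 with glucosamine plus IL-1β, -3.04 ± 1.09 with glucosamine, 11.4 ± 12.9 with IL-1β and 17.8 ± 3.32 in untreated cultures (SD, n = 4, 2, 4 and 3). Its log2 fold changes over untreated cultures were -1.62 with both agents, -1.62 with glucosamine and -0.42 with IL-1β, so the direction was shared with the representative. Its replicate d arrays were the lowest of their groups, at -39.5 with both agents and -7.32 with IL-1β. Without them it averaged -6.16 ± 6.05 with both agents and 17.6 ± 4.09 with IL-1β, and the log2 difference of IL-1β over untreated cultures was -0.02. The other probe set of Agtr2, 1369711_at, averaged 6.91 ± 6.60 with both agents, 5.17 ± 0.126 with glucosamine, 7.05 ± 8.68 with IL-1β and 32.3 ± 5.04 in untreated cultures. Its log2 fold changes were -2.06 with both agents, -2.49 with glucosamine and -2.04 with IL-1β. On this probe set the replicate d arrays were the highest of their groups, at 16.4 with glucosamine plus IL-1β and 19.9 with IL-1β.

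Adra1b, which encodes an alpha-1 adrenergic receptor for noradrenaline and adrenaline, was lowered by both agents and more by IL-1β. Its signals were 4.36, 5.54, 4.94 and 4.76 with glucosamine plus IL-1β, 18.2 and 20.0 with glucosamine, 1.54, 1.09, 0.742 and -1.05 with IL-1β, and 42.6, 39.4 and 37.8 in untreated cultures. The glucosamine arrays lay between the untreated arrays and those with IL-1β, with no overlap, and all 8 arrays with IL-1β were under the floor. Against untreated cultures Adra1b was at least 6.98-fold lower with both agents and with IL-1β (-2.80 ± 0.16 each) and 2.09-fold lower with glucosamine (-1.06 ± 0.19). With both agents it was at least 3.35-fold lower than with glucosamine (-1.74 ± 0.18), a log2 difference that was -1.97 with the floor at the 10th percentile, -0.43 at the 40th percentile and 0 at 32. Both agents and IL-1β alone are at the main floor throughout, and with the floor at the 10th percentile both agents gave 2.28 over IL-1β.

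Edn1 was above the floor on all 13 arrays and was lower in each treated group. Its signals were 37.4, 46.6, 42.0 and 46.5 with glucosamine plus IL-1β, 37.8 and 41.7 with glucosamine, 58.1, 80.3, 87.6 and 114 with IL-1β, and 174, 163 and 171 in untreated cultures. The 2 glucosamine-containing groups overlapped each other and lay below the IL-1β arrays, which in turn lay below the untreated ones. Edn1 was 3.94-fold lower with both agents (-1.98 ± 0.19), 4.26-fold lower with glucosamine (-2.09 ± 0.22) and 2.05-fold lower with IL-1β (-1.03 ± 0.19) than in untreated cultures. Adding glucosamine to IL-1β left it 1.92-fold lower than with IL-1β alone (-0.94 ± 0.17), and adding IL-1β to glucosamine gave 0.11 ± 0.21. The highest IL-1β value was replicate d, and without both replicate d arrays the log2 fold change with IL-1β over untreated cultures was -1.19.

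The summed signal of 10 markers of smooth muscle and pericytes, cells in which Agtr1a and Adra1b are typically prominent, was also lower in treated flasks. In this and the other marker sums negative signals counted as 0. It was 1209 to 1654 with glucosamine plus IL-1β, 1864 to 2284 with glucosamine, 1328 to 1807 with IL-1β, and 3104 to 3391 in untreated cultures. Tagln (1454 ± 82.0), Acta2 (630 ± 62.8) and Smtn (491 ± 4.93) made up most of the untreated sum. Pdgfrb averaged 494 ± 78.7 with both agents, 612 ± 128 with glucosamine and 214 ± 79.9 with IL-1β. Its untreated mean was 475 ± 17.6. Rgs5 was at the floor on all untreated arrays. Of the 10, 5 were called lower and 2 higher with both agents, 3 lower and 1 higher with glucosamine, and 6 lower and 0 higher with IL-1β. The markers called higher were Des with both agents, at 40.4 ± 16.9 against 13.5 ± 0.747 in untreated cultures, and Cspg4 with both agents (87.5 ± 8.76) and with glucosamine (95.5 ± 16.8) against 57.5 ± 2.77 in untreated cultures. The chondrocyte markers also summed lower in treated flasks, at 5778 to 6890 with both agents, 7336 to 7671 with glucosamine and 5221 to 6316 with IL-1β, against 9531 to 10785 in untreated cultures. Of the 8 measured, 7 were called lower with both agents, 2 with glucosamine and 7 with IL-1β, and 0 higher. Acan averaged 260 ± 51.4 with glucosamine against 240 ± 13.7 in untreated cultures, and Matn1 43.7 ± 15.8 with IL-1β against 27.4 ± 5.44. The 5 markers of dedifferentiated cells or fibroblasts summed to 8389 to 10410 with both agents, 8744 to 9877 with glucosamine, 8038 to 9548 with IL-1β and 9821 to 11082 in untreated cultures. The 6 endothelial markers summed to 67.5 to 189 with both agents, 67.9 to 77.6 with glucosamine, 106 to 244 with IL-1β and 62.2 to 89.6 in untreated cultures. Vwf and Emcn were at the floor on all glucosamine and untreated arrays, while Kdr, Tek and Tie1 were above it on all 13. The part of these cell types in the receptor signals was not tested.

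**Figure D2:**
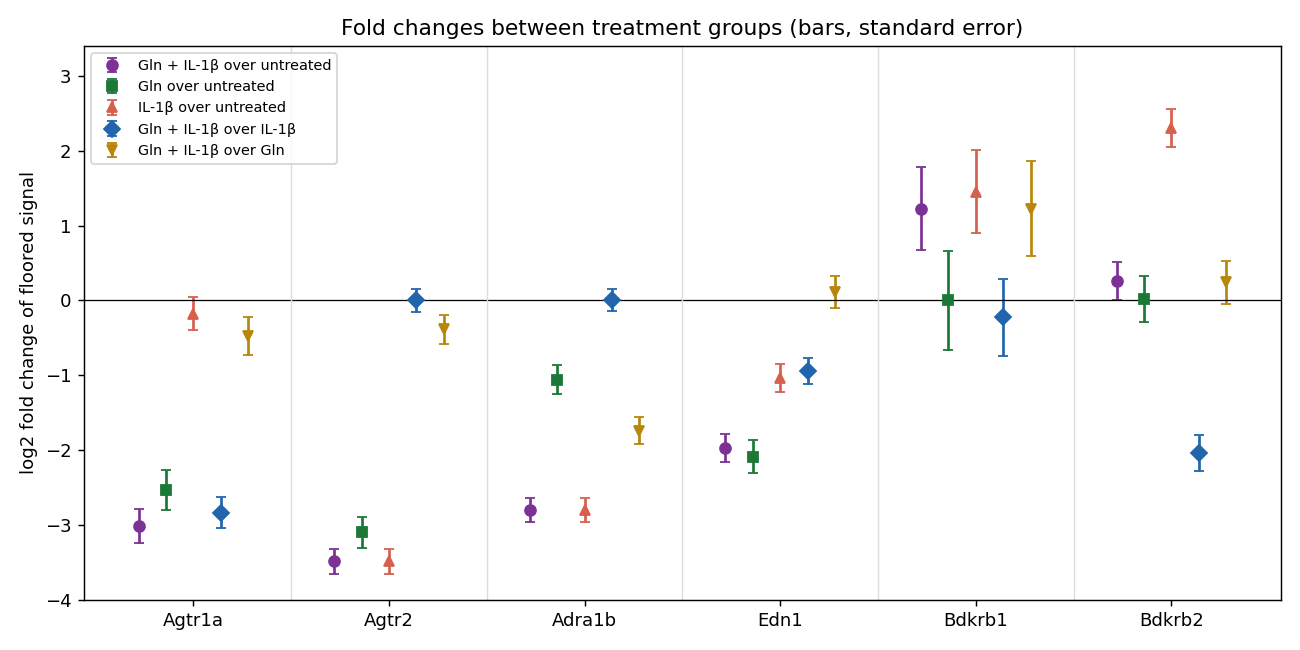
Log2 fold change of floored signal (y axis) for the 6 genes (x axis) in 5 comparisons, with the treatment over its comparator as named in the legend; bars are the standard error of the limma fit. The log2 fold change of Agtr1a is -2.54 with glucosamine and -0.18 with IL-1β, that of Adra1b is -1.06 and -2.80, and Bdkrb2 stands at 2.30 with IL-1β and at 0.26 with both agents.

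The bradykinin receptors were near the floor without IL-1β. Bdkrb2 had signals of 5.45, 8.48, 7.94 and 3.90 with glucosamine plus IL-1β, 5.67 and 5.86 with glucosamine, 29.2, 42.0, 25.5 and 20.2 with IL-1β, and 2.74, 4.42 and 4.57 in untreated cultures. The 4 IL-1β arrays stood apart from the other 9. Bdkrb2 was at least 4.93-fold higher with IL-1β than in untreated cultures (2.30 ± 0.26), and at least 4.12-fold lower with both agents than with IL-1β alone (-2.04 ± 0.24). With both agents against untreated cultures the difference was 0.26 ± 0.26. With the floor at the 40th percentile the IL-1β difference over untreated cultures was 0.99 and that of both agents over IL-1β -0.99, and with the floor at 32, which only 1 array of the gene exceeded, they were 0.10 and -0.10. The summed signal of the 6 leukocyte and macrophage markers measured was also highest with IL-1β, at 87.0 to 125 with both agents, 46.3 to 56.0 with glucosamine, 211 to 261 with IL-1β and 12.4 to 20.2 in untreated cultures. Of these 6, only Cd68 was called higher with IL-1β, and it made up most of the sum there at 188 ± 39.3. In untreated cultures it averaged -15.2 ± 2.50 and added nothing to the sum. Csf1r averaged more with both agents (14.7 ± 19.0) than with IL-1β (10.8 ± 13.4), and Itgam was at the floor on all IL-1β arrays. The part of such cells in the Bdkrb2 signal was not tested.

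The other probe sets of Bdkrb2 did not show this rise. Probe set 1371120_s_at had 10.6, 10.8, 10.7 and 5.96 with IL-1β against 6.05, 10.3 and 12.1 in untreated cultures, which overlapped (0.02 ± 0.26). Probe set 1370649_at had 5.73, 6.33, 4.49 and 16.1 with IL-1β against -0.768, -2.70 and -4.27 in untreated cultures, so the groups did not overlap, but 1 of the 4 IL-1β arrays was under the floor and the floored difference was 0.41 ± 0.40. For both agents over IL-1β, 1371120_s_at gave -0.65 ± 0.24 and 1370649_at gave -0.08 ± 0.37, with overlapping arrays on each. The description of Bdkrb2 therefore rests on 1 of its 3 probe sets.

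Bdkrb1 was highest on the replicate d arrays. Its signals were 9.30, 8.09, 10.9 and 39.1 with glucosamine plus IL-1β, 4.45 and 4.51 with glucosamine, 9.76, 13.1, 12.5 and 37.8 with IL-1β, and 2.70, 5.13 and 3.62 in untreated cultures. All 8 arrays with IL-1β lay above the 5 without it, which were all under the floor. The fold over untreated cultures was at least 2.34 with both agents (1.23 ± 0.56) and at least 2.74 with IL-1β (1.45 ± 0.56). Without both replicate d arrays these log2 differences were 0.71 with both agents and 1.03 with IL-1β. They moved with the floor, to 1.86 with both agents and 2.09 with IL-1β at the 10th percentile, 0.37 and 0.35 at the 40th percentile, and 0.07 and 0.06 at 32. Glucosamine left the IL-1β signal of Bdkrb1 in the same range (-0.23 ± 0.51 for both agents over IL-1β). That of Bdkrb2 was lower by 2.04 on the log2 scale, on its representative probe set only.

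**Figure D3:**
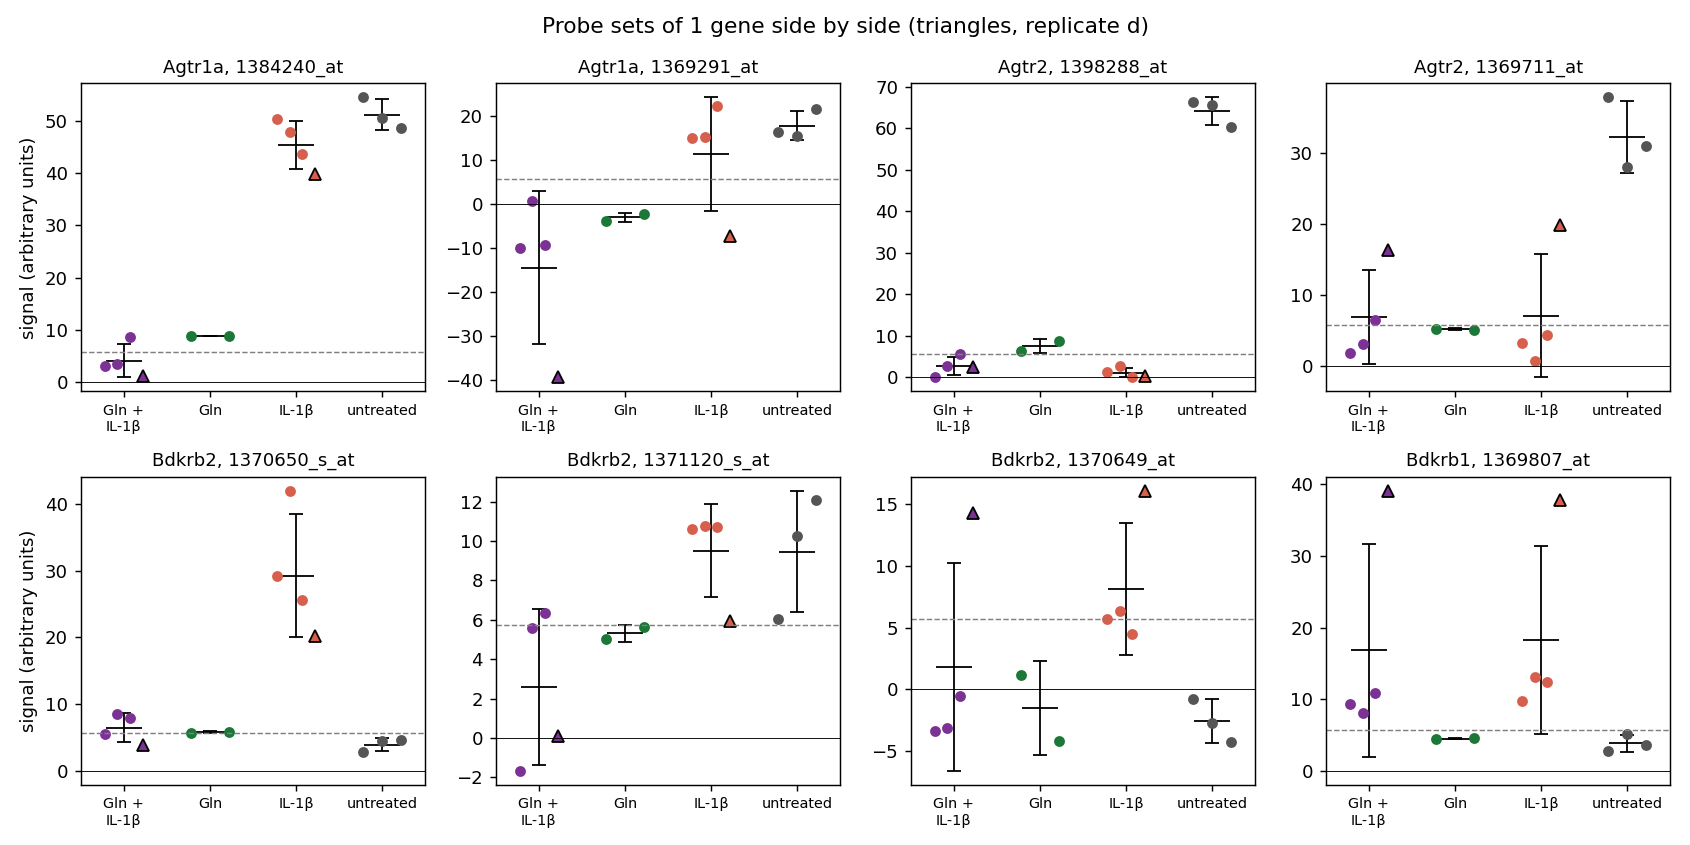
Signals (y axis, arbitrary units, linear) of the probe sets of Agtr1a, Agtr2, Bdkrb2 and Bdkrb1 on each array by treatment group (x axis; Gln, glucosamine), with group mean ± SD and the floor of 5.71 as a dashed line. Triangles are replicate d: on 1369807_at (Bdkrb1) they read 39.1 and 37.8 where the other arrays of the same groups stay at 13.1 or lower.

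The 2 replicate d arrays, 1 with glucosamine plus IL-1β and 1 with IL-1β, stood apart over the whole array. Their medians were 37.9 to 38.7 and their 1st percentiles -36.8 to -31.0, against medians of 20.8 to 24.6 and 1st percentiles of -6.47 to -4.81 on the other 11. Array means lay between 127 and 145. The part of this difference in the low signals of Bdkrb1 and of the other probe sets was not tested.

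Genes of the same pathways were read from 6 lists of 89 genes, which were not chosen for how they moved but were drawn up with results of these arrays known. A probe set was found for 80, and 72 were tested. With both agents against untreated cultures 9 were called higher and 15 lower, beside 11.5% and 12.4% of all tested probe sets. With glucosamine 5 were called higher and 8 lower, beside 7.14% and 7.56%. With IL-1β 11 were called higher and 10 lower, beside 11.1% and 13%. The median log2 fold change was 0.08 with both agents, -0.11 with glucosamine and 0.26 with IL-1β, beside 0.13, 0 and 0.10 over all probe sets. With both agents 4 were called higher and 17 lower than with IL-1β, beside 11.9% and 11.4%. Against glucosamine 0 were called higher and 2 lower, beside 0.933% and 0.861%. These shares stand beside the counts of each list below as well. The interaction of the agents was called higher for 4 and lower for 7 of the 72, beside 3.98% and 4.57% of all probe sets.

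The list of angiotensin system genes held the precursor, processing enzymes, receptors and associated proteins, and 10 of its genes were tested. Of these, 3 were called higher and 1 lower with both agents, 2 higher and 0 lower with glucosamine, and 1 higher and 1 lower with IL-1β. Enpep, the aminopeptidase that converts angiotensin II into angiotensin III, averaged 1123 ± 87.1 with glucosamine plus IL-1β, 927 ± 53.5 with glucosamine, 1416 ± 126 with IL-1β and 614 ± 12.8 in untreated cultures (SD, n = 4, 2, 4 and 3). It rose 1.83-fold with both agents, 1.51-fold with glucosamine and 2.30-fold with IL-1β (limma adjusted p = 9.08e-06, 0.0013 and 5.06e-07). Prcp, a carboxypeptidase that also cleaves angiotensin II, fell 2.28-fold with IL-1β, to 50.8 ± 15.3 against 111.7 ± 3.51 in untreated cultures (limma adjusted p = 0.00344). Atp6ap2, the prorenin receptor, rose 1.36-fold with glucosamine, to 795 ± 31.2 against 586 ± 15.5 in untreated cultures (adjusted p = 0.00854 in limma, and not called without glucosamine replicate a).

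Of 8 adrenergic genes tested, 2 were called higher and 2 lower with both agents, 1 higher and 0 lower with glucosamine, and 0 higher and 1 lower with IL-1β. Grk2, the kinase that phosphorylates activated adrenergic receptors, rose 2.21-fold with glucosamine, to 53.7 ± 7.68 against 24.4 ± 4.34 in untreated cultures (limma adjusted p = 0.00935). That call was lost without glucosamine replicate b and with quantile normalization. Maoa, which degrades noradrenaline, fell 1.76-fold with IL-1β, to 156 ± 30.0 against 271 ± 5.58 in untreated cultures (limma adjusted p = 0.00212). The 3 endothelin genes tested were the converting enzymes Ece1 and Ece2 and their relative Ecel1, and their log2 fold changes over untreated cultures ran from -0.27 to 0.25. The lowest adjusted p in limma among these was 0.115, for Ece1 with IL-1β (0.25 ± 0.11). Of 6 kinin genes, 1 was called in the comparisons with untreated cultures, with IL-1β. It was Serping1, the C1 inhibitor that restrains kallikrein, at 670 ± 55.3 with IL-1β against 444 ± 40.2 in untreated cultures (1.51-fold higher, limma adjusted p = 0.000108).

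Downstream of the receptors, 19 genes of Gq and RGS signalling were tested, of which 3 were called higher and 3 lower with both agents, 2 higher and 2 lower with glucosamine, and 5 higher and 2 lower with IL-1β. Rgs16, a GTPase activator that shortens Gq signals, had 27.5 to 56.4 with IL-1β and was at or under the floor on the other 9 arrays. It was at least 6.75-fold higher with IL-1β than in untreated cultures (limma adjusted p = 2.85e-06), a call lost with the floor at 32. Rgs2, a selective brake on Gq, averaged 8.54 ± 5.86 with both agents, 5.75 ± 1.22 with glucosamine, 7.73 ± 4.69 with IL-1β and 26.2 ± 0.700 in untreated cultures, and fell at least 3.21-fold with both agents, 4.27-fold with glucosamine and 3.48-fold with IL-1β (limma adjusted p = 0.0104, 0.0133 and 0.00697). The glucosamine call of Rgs2 was lost without either glucosamine array. Itpr3, a calcium release channel of the endoplasmic reticulum, averaged 312 ± 15.6 with both agents, 279 ± 3.11 with glucosamine, 496 ± 56.9 with IL-1β and 138 ± 2.05 in untreated cultures. It rose 2.26-fold with both agents, 2.02-fold with glucosamine and 3.57-fold with IL-1β (limma adjusted p = 9.56e-07, 2.95e-05 and 1.78e-08). Prkca, a protein kinase C activated by diacylglycerol and calcium, fell 1.34-fold with glucosamine, to 72.5 ± 2.05 against 96.9 ± 2.29 in untreated cultures (limma adjusted p = 0.0076, lost without glucosamine replicate a).

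**Figure D4:**
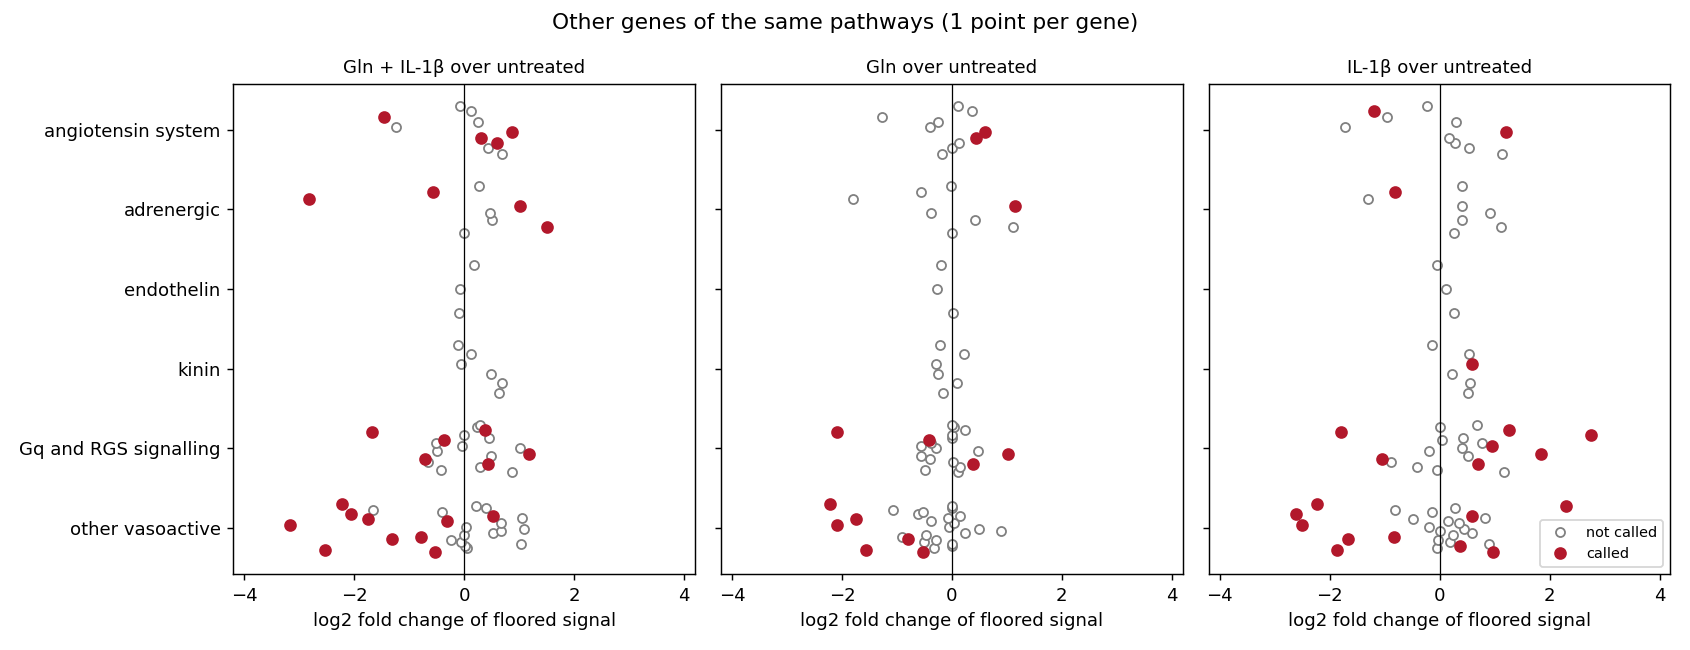
Log2 fold change of floored signal (x axis) of the 72 related genes tested, by pathway list (y axis), with glucosamine plus IL-1β, glucosamine and IL-1β over untreated cultures from left to right (Gln, glucosamine). Each point is 1 gene and filled points were called by limma: 24, 13 and 21 genes in the 3 panels.

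Of 26 other vasoactive receptors and ligands, 1 was called higher and 9 lower with both agents, 0 higher and 6 lower with glucosamine, and 4 higher and 6 lower with IL-1β. Npr3, the natriuretic peptide clearance receptor, averaged 68.2 ± 6.33 with both agents, 143 ± 2.26 with glucosamine, 109.6 ± 22.03 with IL-1β and 612 ± 20.5 in untreated cultures, and thus fell 8.998-fold with both agents, 4.28-fold with glucosamine and 5.67-fold with IL-1β (limma adjusted p = 2.17e-08, 5.45e-06 and 7.91e-08). S1pr3, a sphingosine 1-phosphate receptor, fell 6.10-fold with IL-1β, to 24.8 ± 6.47 against 147 ± 2.44 in untreated cultures (limma adjusted p = 5.03e-06). Vipr1 and Vipr2 encode receptors for vasoactive intestinal peptide. Vipr1 averaged 30.0 ± 12.5 with IL-1β and 2.51 ± 0.0492 in untreated cultures (at least 4.95-fold higher, limma adjusted p = 6.15e-05), which was not called with the floor at 32 either. Vipr2 had 26.7 ± 0.870 in untreated cultures and was under the floor on all 10 treated arrays, at least 4.68-fold lower with glucosamine (limma adjusted p = 1.49e-06). Ramp3, which helps form adrenomedullin receptors, fell at least 3.35-fold with glucosamine, to 3.44 ± 1.41 against 19.4 ± 4.24 in untreated cultures (limma adjusted p = 0.00067, lost with the floor at the 10th or 40th percentile).

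The genes whose pattern was most like each member were sought over 11988 other genes by Pearson r of log2 signal across the 13 arrays, which fall into the 4 groups, as a description. For Agtr1a they were Kif18b, Tfpi and Kif20b, each at r = 0.99. Kif20b, for example, averaged 15.8 ± 1.43 with glucosamine plus IL-1β, 17.4 ± 2.22 with glucosamine, 158 ± 26.4 with IL-1β and 154 ± 15.0 in untreated cultures. For Agtr2 they were Cmtm8, Igf1 and Gdf10, each at 0.99, and all 3 had means under the floor in the treated groups. For Adra1b they were Pln at 0.995 and Galnt5 and Prps2 at 0.99. Prps2 averaged 439 ± 21.5 with both agents, 743 ± 40.8 with glucosamine, 421 ± 34.7 with IL-1β and 1289 ± 67.4 in untreated cultures. For Edn1 they were Nrm at 0.98 and Epb41l2 and Taf11l1 at 0.97, and Epb41l2 averaged 208 ± 36.6 with both agents, 211 ± 15.0 with glucosamine, 345 ± 41.9 with IL-1β and 582 ± 18.1 in untreated cultures. For Bdkrb2 they were Gmnn, Ripk2 and Myh3 at 0.98, and Ripk2 averaged 133 ± 20.2 with both agents, 109.7 ± 19.8 with glucosamine, 733 ± 58.8 with IL-1β and 96.9 ± 1.38 in untreated cultures. For Bdkrb1 they were Tbc1d32, Tmem54 and Sema6b at 0.98, whose spread within the groups with IL-1β was also wide, as in Tbc1d32 with 50.04 ± 45.4 with both agents, 15.7 ± 1.51 with glucosamine, 49.7 ± 40.8 with IL-1β and 17.8 ± 1.75 in untreated cultures.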

How the data were processed

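RNA of each flask was hybridized to 1 array. According to the methods, the authors read arrays with Microarray Suite version 5 and used Probe Profiler to turn each probe set into 1 intensity on a common global scale, and the labels name MAS5. The deposited intensities are linear and partly negative. Their array means ran from 127 to 145, and whether they are on the scale named in the methods was not settled. The intensities were used as deposited, so differences in low signals between arrays remain. Of 31099 rows, 57 controls were left out. Symbols came from the platform annotation (20826 probe sets with 1 gene, 436 with several, 9780 with none).

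Intensities were floored at the 25th percentile (5.71), expressed as log2 and fitted in 1 model of 4 groups with limma 3.58.1 in R 4.3.3 (lmFit, eBayes with trend, 2-sided). The number of arrays limits the precision. The fit was tested on simulated data, with the setting and outcome not reported here. Members and gene lists were chosen with earlier results of these data known. Related genes are named where called for IL-1β or glucosamine over untreated cultures, at most 3 per list and comparison, by size of change. Alternatives were other floors, filters, scalings, probe sets, tests and array sets. Promoter motifs were chosen from general knowledge, and TATAAN after the windows had been seen. Replicate letters were not used as a block: over all groups 7 of 16 same-letter pairs had deviations correlated over 0.1, as had 14 of 46 different-letter pairs. All 4 same-letter pairs between glucosamine plus IL-1β and IL-1β did, but so did the different-letter pairs of a, b and c there.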

Additional observations from a re-analysis of the deposited data

Results flagged for a closer look

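In 20 groups of 4 arrays, over the 10 probe sets of the members, 5 had 1 array far from the other 3 by Dixon's criterion, and all 5 were replicate d. Chance gives such an array in about 1 of 20 independent groups. The groups here share their arrays, and some share a gene, so the count was not set against that rate. Bdkrb1 read 39.1 with glucosamine plus IL-1β, where the others read 8.09 to 10.9, and 37.8 with IL-1β, where the others read 9.76 to 13.1. Bdkrb2 probe set 1370649_at read 14.3 with both agents, where the others read -3.35 to -0.56, and 16.1 with IL-1β, where the others read 4.49 to 6.33. Bdkrb2 probe set 1371120_s_at read 5.96 with IL-1β, where the others read 10.6 to 10.8.

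The response to IL-1β differed with and without glucosamine, by the interaction term of limma, for 6 of the related genes named. Among all 72 related genes tested it was called for 11, beside 3.98% higher and 4.57% lower of all tested probe sets. The named genes were picked for large called changes with IL-1β or glucosamine over untreated cultures. Those changes enter the interaction, so nothing is read from the count of 6. The difference of the log2 responses, with glucosamine minus without, was -2.76 for Rgs16 (adjusted p = 0.000317), -2.10 for Vipr1 (0.00759), -1.68 for Itpr3 (7.16e-06), -0.93 for Enpep (0.00048), 1.43 for Npr3 (0.000872) and 2.23 for Vipr2 (1.38e-05). Vipr2 was at the floor in all 3 treated groups, so its value restates the fall to the floor. Rgs16 was at or under the floor on every array except those with IL-1β alone, so its value restates the rise with IL-1β. Vipr1 was under the floor on all untreated and glucosamine arrays.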

How the results depend on the processing

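The counts of members called in either direction stayed within 1.5 times the reported ones, except for glucosamine plus IL-1β over glucosamine (1), which became 0 with the floor at the 10th percentile or at 32 and 2 without both replicate d arrays. Single calls moved more. Bdkrb2 was not called in any comparison with the floor at 32. Bdkrb1 was called higher with IL-1β with the floor at the 10th percentile, quantile normalization or the replicate block. It was also called without both replicate d arrays or without that of glucosamine plus IL-1β. At the 10th percentile Adra1b lost its glucosamine call and was called higher with both agents over IL-1β. The count of related genes called fell with the methods' analysis of variance and Tukey test to 11 for IL-1β, 9 for both agents over untreated cultures and 8 for both agents over IL-1β. For glucosamine over untreated cultures it was 24 without both replicate d arrays and 29 in a fit to those groups alone. For both agents over glucosamine it was 1 with quantile normalization, 5 without replicate d and 1 in a fit to those groups alone. Leaving out 1 array at a time gave 8 to 18 related genes for glucosamine (8 without replicate a) and 0 to 3 for both agents over glucosamine. No called value changed sign. With the replicate block, 5 members were called for IL-1β, 4 for glucosamine and 5 for both agents over untreated cultures, 3 and 1 for both agents over IL-1β and glucosamine, and 28, 18, 22, 27 and 3 related genes in the same order. The block moved the log2 difference of Bdkrb1 over untreated cultures to 0.76 with both agents and 0.98 with IL-1β. Same-letter arrays had correlations of deviations from -0.17 to 0.80, over 0.1 in 7 of 16 pairs. Different-letter arrays had -0.67 to 0.56, over 0.1 in 14 of 46 pairs. Between glucosamine plus IL-1β and IL-1β all 4 same-letter pairs exceeded 0.1 (0.38 to 0.80), and there the block kept the member count at 3. Different-letter pairs of a, b and c in these groups also exceeded it (0.33 to 0.56), so the letters did not set those pairs apart. Pairs of a replicate d array with a, b or c had -0.67 to -0.47. The cause of these changes was not tested. Low signals and 2 glucosamine arrays limit the folds.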
